A study of Mus musculus with 3 samples.

Results

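The 10 genes described here encode heat shock proteins, and they were taken by symbol from the 30905 gene rows of each count matrix: Hspa1a, Hspa1b, Hsph1, Dnajb1, Dnaja1, Hspb1, Hspd1, Hspe1, Hsp90aa1 and Hspa8. All 10 were found once. They were measured in leukocytes carrying CD45, the surface protein common to white blood cells, that had been sorted from the colon of C57BL/6 mice and sequenced as droplet single-cell libraries counting transcript 3′ ends with unique molecular identifiers (UMIs). There were 3 libraries with 1 per group. T1 held colon whose intraepithelial neoplasia was low-grade, T3 colon in which it was high-grade, and C normal colon of healthy mice. The mice of T1 and T3 had received the carcinogen azoxymethane (AOM, 12 mg/kg, intraperitoneal) and then 3 cycles of dextran sodium sulfate (DSS, 2.5% in drinking water for 7 days, then 14 days of water), a colon irritant. The model was begun at 6 to 8 weeks of age. The number of mice per library is not given in the sources used here, so lesion grade, AOM and DSS exposure, animal and preparation cannot be told apart, and every interval below covers counting error only, with no replicate check.

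Heat shock proteins are chaperones that help other proteins fold, keep unfolded chains from clumping and hand them on for refolding or degradation. The inducible HSP70 proteins, their J-protein partners that deliver substrates and stimulate the ATPase, the HSP110 nucleotide exchange factors and HSP90 work in sequence on one substrate. Many of their genes are switched on by heat shock factor 1, which binds repeated, inverted GAA units called heat shock elements. In lymphocytes the stress-inducible members are also known to rise while tissue is being dissociated into single cells, together with the immediate early genes of the Fos and Jun families.

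Barcodes with at least 200 detected genes and at most 20% mitochondrial UMIs were kept, which left 5935, 6140 and 4542 in C, T1 and T3, with median UMIs of 4913, 5272 and 1801. They were clustered without the 10 genes and without the chaperone and immediate early lists, and clusters were named from marker genes, so that B-like barcodes numbered 2860, 3083 and 897 and T-like barcodes 2062, 2231 and 1952 in that order. The labels call the mice male, whereas Xist stood at 1281, 1196 and 1362 CPM (counts of a gene per 1000000 UMIs) and the Y-linked genes Ddx3y, Uty, Kdm5d and Eif2s3y together at 0, 1 and 1 UMI, so all 3 libraries go against that label. T1 and C shared 39 barcode sequences, T3 and C 35, and T3 and T1 35. The doublet caller marked only 0.0488% of T1 and 0.0220% of T3 and did not work there, so doublets remain. T3 also held 1182 barcodes of an unnamed cluster led by haemoglobin and neutrophil genes, against 0 in T1 and 1 in C. Levels below are CPM of the UMIs summed over a class, with the exact 95% Poisson interval in parentheses, and a gene was called higher or lower between libraries if its CPM differed at least 2-fold, it had at least 100 UMIs over both libraries and the exact interval of the ratio excluded 1.

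Stretches near the start sites of some of these genes are shown first, with letter matches to heat shock units marked. Hspa1a (ENSMUSG00000091971, chr17:34969190-34972156) and Hspa1b (ENSMUSG00000090877, chr17:34956436-34959238) are neighbouring copies on the minus strand (GENCODE, GRCm38). Their RefSeq promoters (GRCm38.p6) were identical at 247 of the 250 bases before the start site, or 98.8%, and are printed to show how alike the pair is. Capitals mark a head-to-head pair of heat shock units (GAANNTTC, its own reverse complement), which lies from base -104 to base -97 in both.
Hspa1a: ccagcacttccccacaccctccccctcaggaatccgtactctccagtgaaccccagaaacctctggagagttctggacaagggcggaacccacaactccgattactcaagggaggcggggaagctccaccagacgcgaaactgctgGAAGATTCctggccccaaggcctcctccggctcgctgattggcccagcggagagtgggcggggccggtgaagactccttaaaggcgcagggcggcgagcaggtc
Hspa1b: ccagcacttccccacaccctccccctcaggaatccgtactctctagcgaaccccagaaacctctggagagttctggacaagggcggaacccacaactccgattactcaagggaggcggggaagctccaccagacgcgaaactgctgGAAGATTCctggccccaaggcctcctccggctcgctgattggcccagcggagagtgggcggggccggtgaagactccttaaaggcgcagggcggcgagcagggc
The windows were chr17:34972157-34972406 and chr17:34959239-34959488. Of all 32851 RefSeq promoter windows of 300 bases (250 before to 50 after the start), 7.86% held that pair and 8.52% held the tail-to-tail pair TTCNNGAA.

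The mitochondrial chaperonin genes Hspd1 (ENSMUSG00000025980, chr1:55077835-55088243, minus strand) and Hspe1 (ENSMUSG00000073676, chr1:55088132-55091307, plus strand) point away from each other and overlap at their first bases in GENCODE. Shown are the 215 bases between the Hspe1 start and the downstream one of 2 RefSeq starts of Hspd1, chr1:55087933-55088147 on the plus strand. The upstream start of Hspd1, with the window chr1:55088194-55088493, lies at the GENCODE start of the gene. Seen from that start, the stretch is inside Hspd1 and is not shared between 2 promoters. The window of the upstream start held neither 3 units nor a pair. Capitals mark an unbroken run of 4 alternating heat shock units over 18 bases, 89 to 72 bases before the Hspe1 start.
Hspe1-Hspd1: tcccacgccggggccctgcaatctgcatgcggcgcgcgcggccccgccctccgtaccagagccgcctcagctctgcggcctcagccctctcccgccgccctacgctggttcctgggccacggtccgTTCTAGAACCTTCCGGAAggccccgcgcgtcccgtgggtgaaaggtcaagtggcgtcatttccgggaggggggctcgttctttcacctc
Each direction of this stretch matched the 3-unit element GAANNTTCNNGAA or its reverse complement TTCNNGAANNTTC. Hsph1 (ENSMUSG00000029657, chr5:149614287-149636376, minus strand) held the 3-unit element as TTCTGGAAAGTTC at chr5:149636288-149636300. It lay from base 16 to base 28 after the downstream one of 2 RefSeq starts. In all, 4 of the 13 RefSeq windows of the members held the 3-unit element on either strand, against 198 of 32851 windows overall (0.603%). The 4 cover 2 stretches, since the windows of Hspd1 and Hspe1 share one and both windows of Hsph1 overlap. Windows of Hspa1a, Hspa1b, Dnaja1 (ENSMUSG00000028410, chr4:40722150-40737149) and Hspb1 (ENSMUSG00000004951, chr5:135887919-135889563) held a pair of units but not 3, and those of Dnajb1 (ENSMUSG00000005483, chr8:83608193-83612653) held neither. The other members are Hsp90aa1 (ENSMUSG00000021270, chr12:110690605-110702728) and Hspa8 (ENSMUSG00000015656, chr9:40800984-40810087). A match describes the letters in the window and not a bound site.

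Hspa1a and Hspa1b, the stress-inducible HSP70 chaperones, were lower in T1 than in C in both large classes, and T3 stood close to C in B-like but not in T-like barcodes. In B-like barcodes Hspa1a had 2168 CPM (2144 to 2192) in C, 839 (825 to 853) in T1 and 2264 (2212 to 2316) in T3. Hspa1b had 2256 (2232 to 2280), 857 (843 to 871) and 2765 (2707 to 2823) CPM in the same order. T1 thus lay far below the other libraries for both genes, and the intervals of T3 and C did not overlap. These intervals take UMIs as independent. The variance of Hspa1a over its mean was 5.49, 5.24 and 7.89 at 1000 UMIs per barcode in C, T1 and T3. The intervals are therefore too narrow for the spread between barcodes. In T-like barcodes Hspa1a had 2172 CPM (2146 to 2198) in C, 996 (979 to 1013) in T1 and 1076 (1055 to 1098) in T3. Hspa1b had 2603 (2574 to 2632), 1091 (1074 to 1108) and 1404 (1379 to 1429) CPM. Here T3 stood near T1 and well below C. The pair is known as near-identical copies, how the authors' counting divided reads between them was not tested, and the sum of both is given where a single value is enough: 4424, 1696 and 5028 CPM in B-like and 4775, 2087 and 2481 CPM in T-like barcodes of C, T1 and T3.

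**Figure D1:**
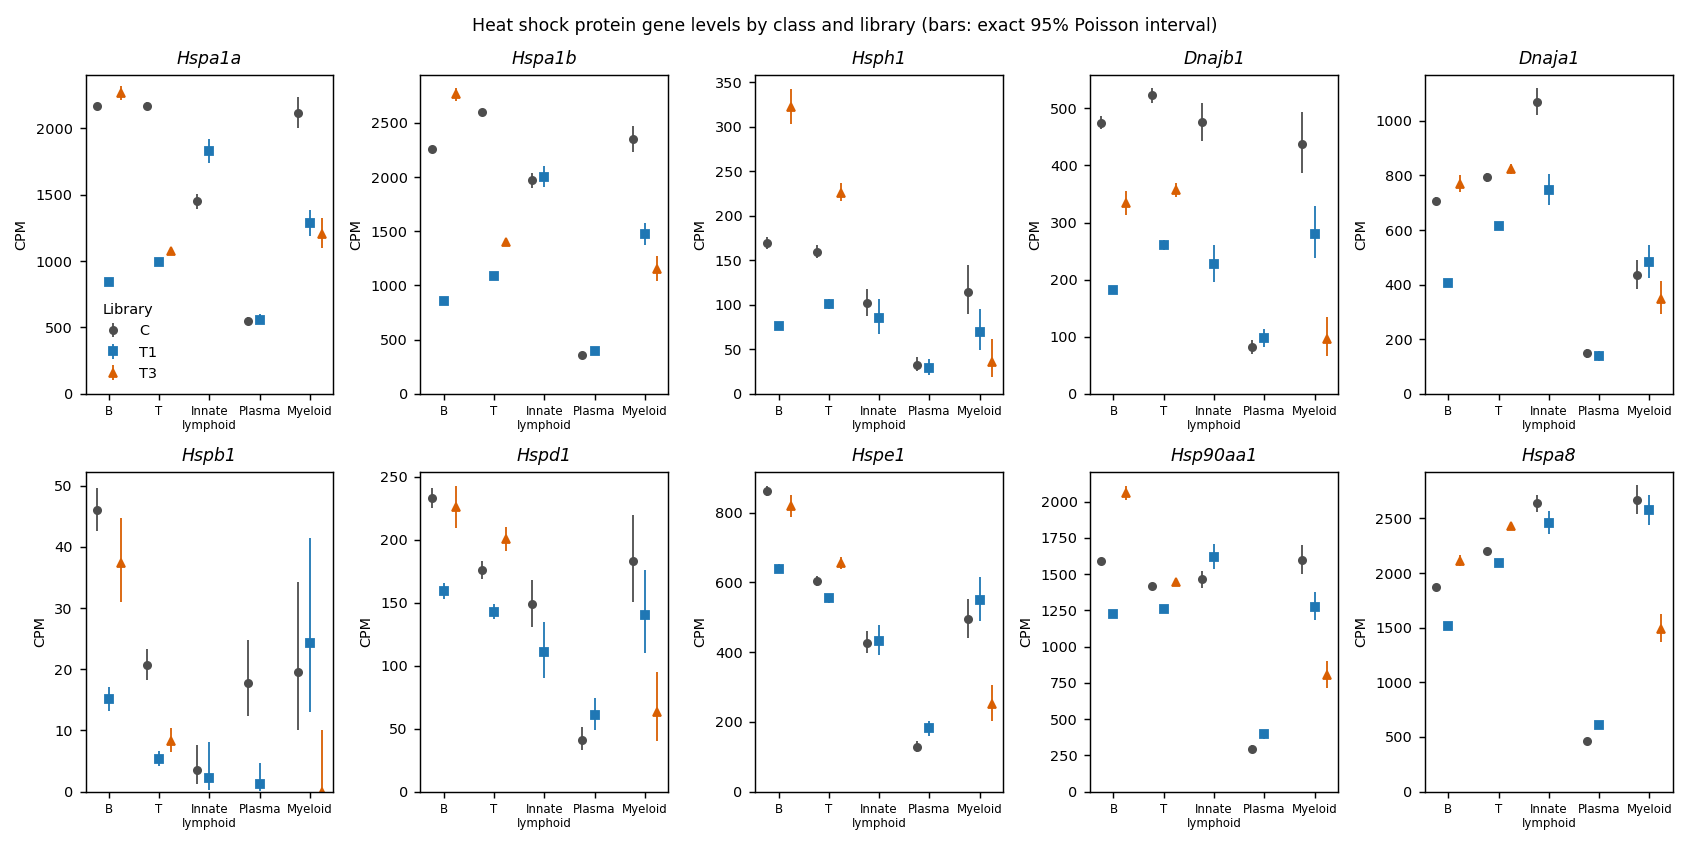
CPM of each of the 10 genes (vertical axis) in B, T, innate lymphoid, plasma and myeloid barcodes (horizontal axis) of C, T1 and T3, with exact 95% Poisson intervals; combinations with under 50 barcodes are left out. Hspa1a in B-like barcodes sits at 839 CPM in T1, below 2168 in C and 2264 in T3, whereas in T-like barcodes T1 (996) and T3 (1076) lie together.

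Hspa1a was 2.58-fold and Hspa1b 2.63-fold lower in T1 than in C among B-like barcodes (log2 ratios -1.37 and -1.40). Among T-like barcodes they were 2.18-fold and 2.39-fold lower (-1.12 and -1.25). T3 against C gave log2 ratios of 0.06 and 0.29 in B-like barcodes, neither of which passed 2-fold, and -1.01 and -0.89 in T-like barcodes, of which that of Hspa1a passed. T3 against T1 gave 1.43 and 1.69 in B-like barcodes, both called higher, and 0.11 and 0.36 in T-like barcodes.

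Hsph1 encodes HSP110, the nucleotide exchange factor that resets HSP70 for a further round. It had 169 CPM (163 to 176) in C, 75.8 (71.6 to 80.2) in T1 and 322 (303 to 342) in T3 among B-like barcodes. Among T-like barcodes it had 160 (153 to 167), 101 (95.7 to 106) and 226 (216 to 236) CPM. T1 was lowest and T3 highest in both classes, with no overlap of intervals. T1 against C was called lower in B-like barcodes (log2 ratio -1.16) and not in T-like barcodes (-0.66). T3 against T1 was called higher in both, at 2.09 and 1.16, and T3 against C reached 0.93 and 0.50 without passing 2-fold.

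The J-proteins bring unfolded chains to HSP70. Dnajb1, the stress-inducible one, had 475 CPM (464 to 486) in C, 183 (176 to 189) in T1 and 334 (314 to 354) in T3 among B-like barcodes, and 523 (510 to 536), 260 (252 to 269) and 357 (345 to 370) CPM among T-like barcodes. T1 was lowest in both, and T3 lay between T1 and C. T1 against C was called lower in B-like (-1.38) and in T-like barcodes (-1.01). T3 against C was -0.51 and -0.55. Dnaja1, whose product is farnesylated and serves constitutive HSP70 and HSP90, had 707 (694 to 721), 405 (395 to 415) and 770 (740 to 801) CPM in B-like and 794 (778 to 810), 616 (603 to 629) and 823 (804 to 843) CPM in T-like barcodes. It passed 2-fold in no comparison of the B-like or T-like classes, and its intervals put T1 below the others.

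Hspb1 encodes the small heat shock protein that holds unfolded chains without using ATP, and its UMIs were few: 673, 242 and 119 in B-like and 251, 75 and 71 in T-like barcodes of C, T1 and T3. These gave 46.1 (42.7 to 49.7), 15.1 (13.2 to 17.1) and 37.4 (31.0 to 44.7) CPM in B-like and 20.6 (18.2 to 23.4), 5.34 (4.20 to 6.69) and 8.19 (6.40 to 10.3) CPM in T-like barcodes. The intervals of T3 and C overlapped in B-like barcodes, and those of T3 and T1 overlapped in T-like barcodes. It was called lower in T1 than in C in both classes, with log2 ratios of -1.61 and -1.95. T3 against C was called lower in T-like barcodes (-1.33) and T3 against T1 was called higher in B-like barcodes (1.31). Among T-like clusters of C the level was highest in cluster 19, at 64.6 CPM against a median of 4.93 CPM. Cluster 19 held 340, 58 and 1 barcodes of C, T1 and T3. In the 7 T-like clusters with at least 20 barcodes in both C and T3, which leave it out, Hspb1 was higher in T3 in 6, with a weighted ratio of 0.57.

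Hspd1 and Hspe1, the chaperonin and its lid in mitochondria, passed 2-fold in no comparison of the B-like or T-like classes. Hspd1 had 233 (225 to 241), 159 (153 to 166) and 226 (210 to 243) CPM in B-like and 176 (169 to 184), 143 (137 to 149) and 201 (191 to 210) CPM in T-like barcodes of C, T1 and T3. Hspe1 had 863 (848 to 878), 639 (627 to 652) and 820 (789 to 852) CPM in B-like and 605 (591 to 619), 554 (542 to 567) and 656 (639 to 673) CPM in T-like barcodes. T1 was the lowest library for both genes in both classes. Their T1 against C log2 ratios were -0.55 and -0.43 in B-like and -0.30 and -0.13 in T-like barcodes.

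Hsp90aa1 encodes the inducible cytosolic HSP90, and Hspa8 the HSP70 that is always present and also strips clathrin coats. Hsp90aa1 had 1592 (1572 to 1613), 1225 (1208 to 1243) and 2060 (2010 to 2110) CPM in B-like barcodes of C, T1 and T3, and 1415 (1394 to 1437), 1257 (1238 to 1276) and 1444 (1419 to 1469) CPM in T-like barcodes. Hspa8 had 1874 (1851 to 1896), 1517 (1498 to 1536) and 2111 (2061 to 2162) CPM in B-like and 2201 (2174 to 2227), 2094 (2070 to 2118) and 2435 (2403 to 2468) CPM in T-like barcodes. The order T1, C, T3 from low to high held for both genes in both classes, with the intervals of Hsp90aa1 in T3 and C overlapping in T-like barcodes. Their T1 against C log2 ratios, -0.38 and -0.30 in B-like and -0.17 and -0.07 in T-like barcodes, were the nearest to 0 among the 10 genes except for Hspe1 in T-like barcodes.

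Counted together, 5 of the 10 genes were called lower in T1 than in C among B-like barcodes, where 1.09% of 8807 measured genes were lower and 0.250% higher. Their median log2 ratio was -0.98, against -0.11 over all measured genes. Among T-like barcodes 4 of the 10 were lower, where 2.05% of 9120 genes were lower and 2.35% higher, with a median of -0.51 against -0.07. All 10 ratios were below 0 in each class. The 5 calls in B-like barcodes became 0 when both libraries were weighted to 1 mix of B-like clusters. T3 against C gave 0 of 10 called in B-like barcodes (2.90% of 7979 genes were called in each direction). In T-like barcodes it gave 2 of 10 lower (6.99% lower and 3.30% higher of 8701). That count was 0 under the same weighting of T-like clusters and under 3 other alternatives. The weighting left out clusters with under 20 barcodes in either library. T3 against T1 gave 4 of 10 higher in B-like barcodes (2.81% higher and 0.897% lower of 7914) and 1 of 10 higher in T-like barcodes (2.02% higher and 5.58% lower of 8730). These comparisons share libraries, so their ratios are not independent of each other.

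**Figure D2:**
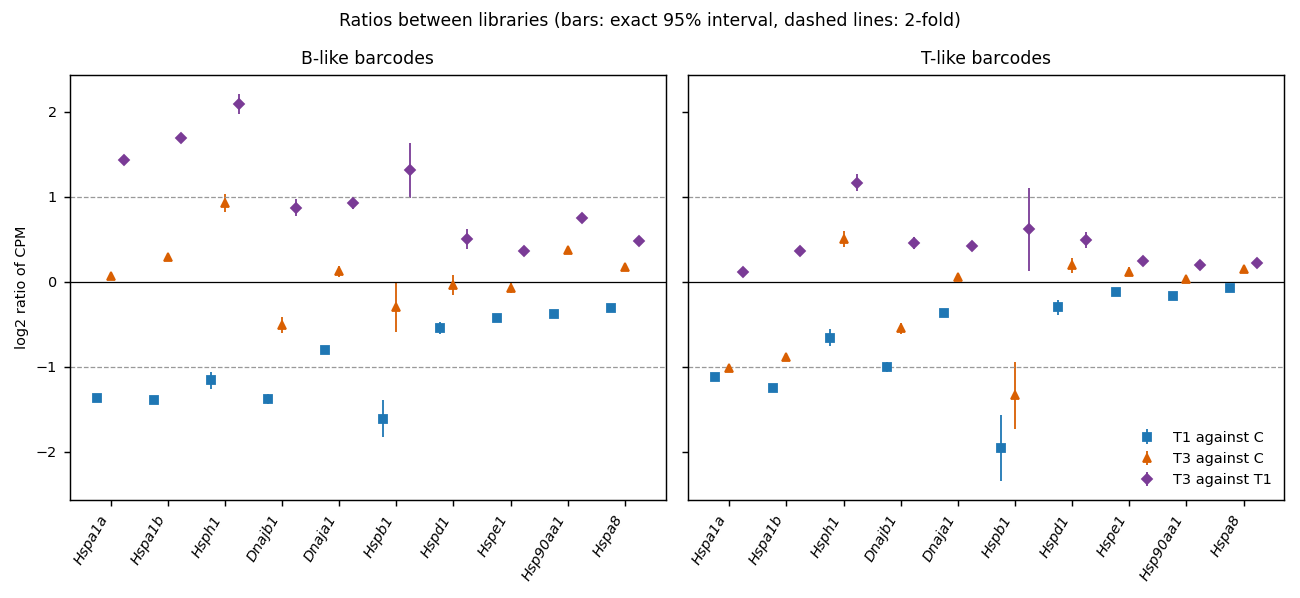
Log2 ratio of CPM (vertical axis) for each gene in B-like (left) and T-like barcodes (right), for T1 against C, T3 against C and T3 against T1, with exact 95% intervals and dashed lines at 2-fold. All 10 T1 against C ratios lie below 0 in each class, and Hsph1 has the largest T3 against T1 ratio of B-like barcodes (2.09).

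The T subsets were taken as T-like barcodes with a UMI of Cd4, of Cd8b1 or of Trdc, the delta chain gene of the gamma-delta receptor, and of only one of them. Hspa1a had 2246, 982 and 1181 CPM in Cd4 barcodes of C, T1 and T3 (416, 917 and 597 barcodes), 1718, 826 and 685 CPM in Cd8b1 barcodes (353, 325 and 399) and 2067, 1172 and 1081 CPM in Trdc barcodes (295, 108 and 44). C was the highest library in all 3 subsets. In each subset 9 of the 10 genes reached 100 UMIs over T1 and C. Called lower in T1 than in C were 3 of 9 in Cd4 barcodes (Hspa1a, Hspa1b and Dnajb1, with 0.320% of all measured genes lower). In Cd8b1 barcodes 2 of 9 were (Hspa1a and Hspa1b, 1.94%) and in Trdc barcodes 1 of 9 was (Dnajb1, 0.924%). In Cd8b1 barcodes T3 was also below T1 for Hspa1a, with a T3 against T1 log2 ratio of -0.27 (-0.36 to -0.18), whereas in Cd4 barcodes it was above (0.27, 0.21 to 0.32). Hsph1 had 155, 105 and 229 CPM in Cd4 barcodes and 161, 99.3 and 210 CPM in Cd8b1 barcodes, so T3 was highest for this gene even where it was low for Hspa1a.

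Innate lymphoid-like barcodes, made up of an ILC2-like and an NK or ILC1-like cluster, numbered 123 in T1 and 246 in C. Hspa1a stood at 1830 CPM in T1 and 1450 CPM in C (log2 ratio 0.34, 0.25 to 0.43), and Hspa1b at 2004 and 1970 CPM (0.02, -0.06 to 0.11). These sums weigh deep barcodes more. With each barcode drawn to 1000 UMIs the mean of Hspa1a was 1.56 UMIs in T1 and 1.63 in C, that of Hspa1b 1.95 and 2.23, and 63.9% of 122 barcodes in T1 and 73.7% of 243 in C held the pair. At 2000 UMIs Hspa1a averaged 3.66 in T1 and 3.28 in C, so its direction here depended on the depth used. The ratio of Hspa1a was 0.22 in the ILC2-like cluster and 0.57 in the NK or ILC1-like cluster. Of the 9 members with at least 100 UMIs over both libraries, only Dnajb1 was called lower, with 227 CPM in T1 and 475 CPM in C (-1.07). Over all measured genes 0.807% were lower. T3 held only 19 such barcodes, with 2911 CPM of Hspa1a and 523 CPM of Hsph1.

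Plasma-like barcodes, 88 in T1 and 88 in C, had the lowest CPM of the 5 classes, over the 13 combinations of class and library with at least 50 barcodes, for 9 of the 10 genes, Hspb1 being the exception. Neutrophil-like barcodes of T3, a cluster within the myeloid class, were lower still for Hspa1a, Hspa1b, Hsph1, Dnajb1, Hspd1 and Hspe1. Hspa1a had 559 CPM in T1 and 547 CPM in C, and Hspa8 610 and 463 CPM. None of the 9 members with at least 100 UMIs over both libraries was called lower in T1 than in C, where 1.49% of measured genes were. CPM is a share of all UMIs, and plasma-like barcodes were deep, with medians of 16706 UMIs in T1 and 22030 in C. B-like barcodes had medians of 5048 and 4684. The HSP70 pair had 1465 UMIs over 88 plasma-like and 27216 over 3083 B-like barcodes of T1, more per barcode in the plasma-like ones. In C it had 1788 over 88 and 64582 over 2860, slightly fewer per barcode. T3 held 8 plasma-like barcodes with 1 UMI of Hspa1a and 0 of Hspb1 and Hspa1b, too few to set beside the others.

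Myeloid-like barcodes joined mononuclear phagocyte-like, neutrophil-like and mast-like clusters, and 56 of the 71 in T3 were neutrophil-like, against 5 of 56 in T1 and 6 of 69 in C. T3 is therefore not set against the others for the joined class. Hspa1a had 1285 CPM in T1 and 2118 CPM in C (-0.72). None of the 9 members with at least 100 UMIs over both libraries was called lower, where 2.55% of measured genes were. Within mononuclear phagocyte-like barcodes Hspa1a had 2386, 1295 and 2789 CPM in C, T1 and T3 (47, 43 and 15 barcodes), the same order of libraries as in B-like barcodes. Neutrophil-like barcodes of T3 had 112 CPM of Hspa1a and 130 CPM of Hspa1b, far below the 2789 and 2628 CPM of mononuclear phagocyte-like barcodes in the same library, and 734 CPM of Hspa8 against 2581.

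How the UMIs were spread over barcodes was read after drawing each barcode down to 1000 UMIs, which left out 55, 90 and 125 shallower B-like and 44, 81 and 264 T-like barcodes of C, T1 and T3. A UMI of Hspa1a was found in 51.9%, 29.1% and 45.3% of B-like barcodes, and without drawing down in 68.7% of those of C. In T-like barcodes the shares were 58.5%, 34.8% and 39.8%. Dnajb1 was found in 30.8%, 15.7% and 26.4% of B-like and 32.6%, 19.3% and 26.5% of T-like barcodes, and Hsph1 in 14.2%, 7.7% and 22.9% and in 14.0%, 9.5% and 18.0%. Hspa8 was found in 78.8%, 70.1% and 79.7% of B-like barcodes. No leukocyte class is known to lack these transcripts, so no class gives a clean background. Classes with low CPM still had an Hspa1a UMI in 19.7% of myeloid-like barcodes of T3 and 31.0% of plasma-like barcodes of C at the same depth. The share of plasma-like barcodes was above the 29.1% of B-like barcodes of T1. Their median depths before drawing down were 3835 and 22030 UMIs, against 3667 and 4684 in B-like barcodes of T3 and C.

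Most barcodes of C held the HSP70 pair, 66.7% of B-like and 77.3% of T-like ones, and the 10% of barcodes with the most held 46.0% and 41.6% of the Hspa1a UMIs. The median B-like barcode had 2, 0 and 1 UMIs of the pair per 1000 in C, T1 and T3, and the barcode at the 90th percentile had 14.0, 6.8 and 18.0. T-like barcodes had medians of 4, 1 and 1 and 90th percentiles of 12.0, 7.0 and 8.0. At least 10 UMIs of the pair were seen in 18.8%, 5.18% and 21.9% of B-like barcodes and at least 20 in 3.89%, 0.936% and 8.29%, so T3 had the longest upper tail although fewer of its barcodes than those of C had any. The variance of Hspa1a over its mean was 5.49, 5.24 and 7.89 in B-like barcodes, where sampling alone gives a value near 1, and that of Hspa8 was 1.49, 1.61 and 1.75.

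**Figure D3:**
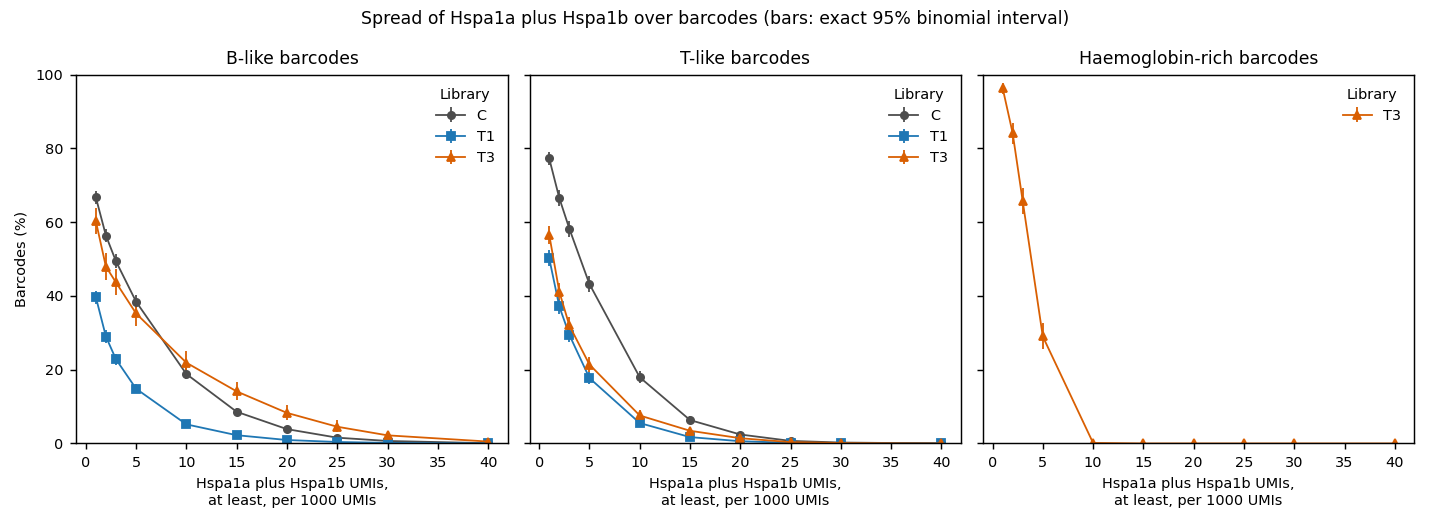
Percent of barcodes (vertical axis) with at least the given number of Hspa1a plus Hspa1b UMIs among 1000 (horizontal axis), with exact 95% binomial intervals, in B-like, T-like and haemoglobin-rich barcodes. B-like barcodes of T3 start below C (60.2% against 66.7% with at least 1) and end above it (8.29% against 3.89% with at least 20), and the haemoglobin-rich barcodes of T3 fall from 96.4% with at least 1 to 0.143% with at least 10.

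The haemoglobin-rich barcodes of T3 differed from the named classes in this spread. Their median depth was 1060 UMIs, and 482 of 1182 fell below 1000. They had 1521 CPM of Hspa1a and 1916 CPM of Hspa1b, more than the 1076 and 1404 CPM of T-like barcodes of T3 and less than the 2264 and 2765 CPM of its B-like barcodes. A UMI of Hspa1a was found in 77.9% of them, against 45.3% of B-like and 39.8% of T-like barcodes of T3. The variance over the mean was 1.03 for Hspa1a and 0.99 for Hspa1b, so the pair was spread almost as evenly as sampling allows. Markers of several lineages were mixed in this cluster, and T cell receptor CD3 chain UMIs were found in 65.9% of its barcodes. Haemoglobin genes summed to 9.86, 6.17 and 408 CPM in B-like and 0.658, 0.569 and 453 CPM in T-like barcodes of C, T1 and T3, so RNA of another cell type was highest in T3 in both classes. Its part in the T3 levels of the members was not tested.

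In B-like and T-like barcodes, those that held a UMI of the HSP70 pair held each other member more often in all 3 libraries. In the T subsets and the other classes some pairs went the other way, such as Hspd1 in Cd4 barcodes of C (13.8% with the pair and 16.0% without) and Dnajb1 in haemoglobin-rich barcodes of T3 (30.2% and 36.0%, the second over 25 barcodes). In B-like barcodes of C, Dnajb1 was found in 39.9% of the 1871 with the pair and in 12.5% of the 934 without it, Dnaja1 in 52.9% and 34.5%, Hsp90aa1 in 78.0% and 57.2%, and Hsph1 in 17.5% and 7.60%. In B-like barcodes of T3, Hsph1 was found in 33.8% of the 465 with the pair and 6.51% of the 307 without, so that the library with the highest Hsph1 held it mainly in barcodes with the pair. Hspd1 was less tied to the pair, with 20.3% and 15.3% in C. In T-like barcodes of C, Dnajb1 was found in 37.5% of the 1559 with the pair and 16.1% of the 459 without, and Hspd1 in 14.6% and 13.7%. All barcodes were drawn to the same 1000 UMIs, and cells of 1 library share its preparation, so these are descriptions within libraries.

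B-like barcodes fell into 12 clusters, and the level of the HSP70 pair varied widely among them. In C, Hspa1a ran from 251 CPM in cluster 24 through a median of 1513 CPM to 3692 CPM in cluster 1, led by Fcer2a and Fcmr. In T1 the lowest, the median and the highest cluster had 182, 817 and 2737 CPM, and in T3 555, 2734 and 6558 CPM, each over clusters with at least 20 barcodes. Hspb1 had its highest level in cluster 20 in every library, with 159, 75.5 and 269 CPM in C, T1 and T3. In T-like clusters Hspa1a ran from 1195 to 2840 CPM in C, from 280 to 1541 CPM in T1 and from 472 to 2220 CPM in T3.

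**Figure D4:**
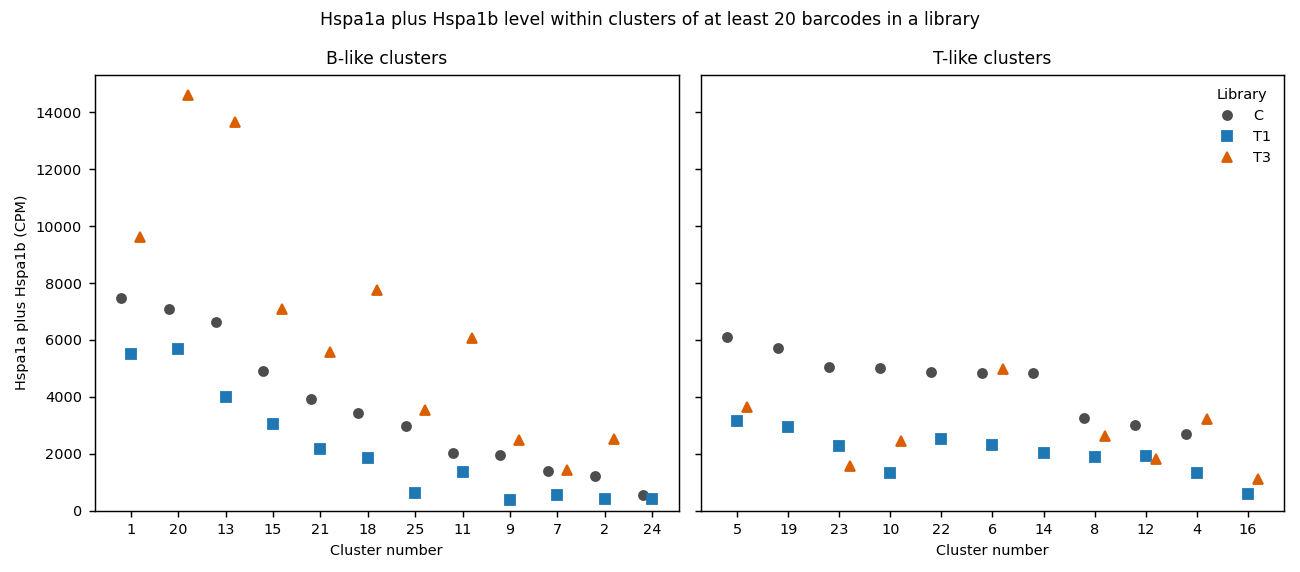
CPM of Hspa1a plus Hspa1b (vertical axis) in each B-like (left) and T-like cluster (right) with at least 20 barcodes in a library, ordered by the level in C where it has one (horizontal axis: cluster number). T1 lies below C in 12 of 12 B-like and 10 of 10 T-like clusters that can be compared.

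Libraries differed in their mix of clusters. Cluster 1 held 700, 341 and 60 barcodes of C, T1 and T3, and cluster 2, led by Plaur and Hs3st1 with 693 CPM of Hspa1a in C, held 125, 775 and 39. Most T-like barcodes of C were in clusters 14, 19, 6 and 22, those of T1 in clusters 10, 5, 8 and 6, and those of T3 in clusters 4, 16 and 12. Within clusters, T1 was below C in 12 of 12 B-like clusters for Hspa1a, Hspa1b, Hsph1, Dnajb1, Dnaja1, Hspd1 and Hspe1, in 11 for Hspa8, 10 for Hspb1 and 7 for Hsp90aa1. Weighted to the cluster mix of C, the T1 against C log2 ratios in B-like barcodes shrank to -0.60 for Hspa1a, -0.62 for Hspa1b, -0.80 for Hsph1, -0.85 for Dnajb1 and -0.60 for Hspb1, so that 0 of 10 passed 2-fold. In T-like barcodes T1 was below C in 10 of 10 clusters for Hspa1a, Hspa1b, Hsph1, Dnajb1, Dnaja1 and Hsp90aa1, and the weighted ratios of Hspa1a, Hspa1b and Dnajb1 were -1.01, -1.08 and -1.01. The same weighting of T3 against C used only clusters with at least 20 barcodes in both libraries. In B-like barcodes it gave 0.62, 0.85 and 1.16 for Hspa1a, Hspa1b and Hsph1, which were higher in 10, 11 and 11 of 11 clusters. In T-like barcodes it gave -0.52 and -0.43 for Hspa1a and Hspa1b, both lower in 5 of 7 clusters. Left out there were clusters 14, 19 and 22, with 422, 340 and 216 barcodes of C, and cluster 16, with 405 of T3. Cluster 32 was left out too. These T-like ratios thus cover only part of the barcodes.

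RNA quality was compared through the mitochondrial share of UMIs, whose median was 6.04%, 6.15% and 6.18% in B-like and 5.03%, 4.88% and 5.71% in T-like barcodes of C, T1 and T3. Among B-like barcodes under 5%, the HSP70 pair had 4604, 1613 and 7306 CPM, at 5 to 10% it had 4386, 1734 and 4044 CPM, and at 10 to 20% it had 4175, 1641 and 4104 CPM. T1 was lowest in each range, whereas T3 was above C under 5%, below it at 5 to 10%, and its interval overlapped that of C at 10 to 20%. Among T-like barcodes the pair had 5379, 2077 and 2296 CPM, then 3957, 2010 and 2448 CPM, then 5401, 2873 and 4009 CPM in the same ranges. Over 20% were 1896, 2396 and 1142 barcodes, of which 1735, 2131 and 1063 had at least 200 detected genes. In the latter, taken over all classes and counted over non-mitochondrial UMIs, the pair had 5056, 2687 and 5167 CPM. T1 was thus lowest there as well.

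**Figure D5:**
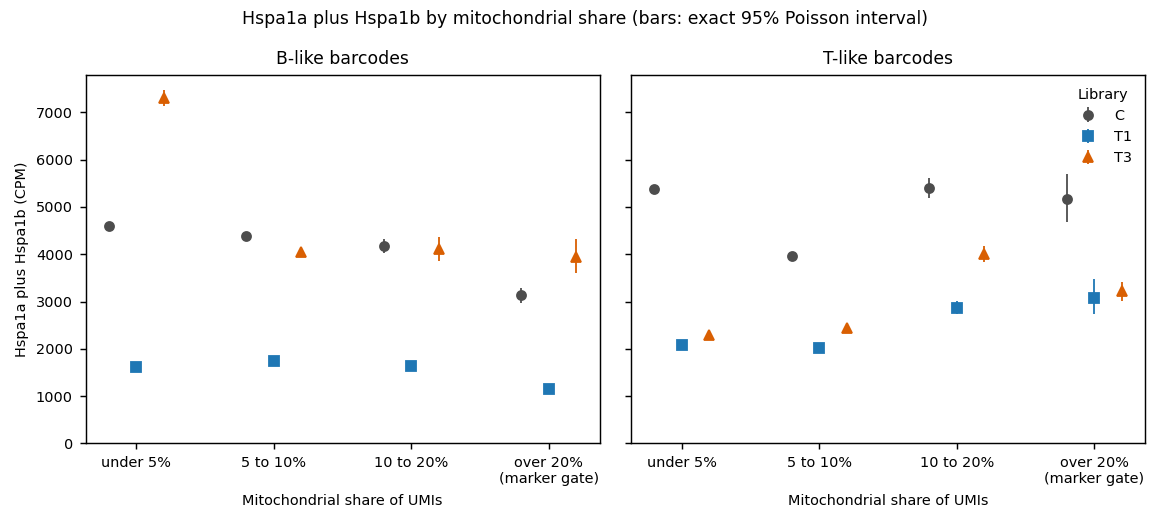
CPM of Hspa1a plus Hspa1b (vertical axis) by the mitochondrial share of a barcode's UMIs (horizontal axis) in B-like and T-like barcodes of C, T1 and T3, with exact 95% Poisson intervals; barcodes over 20% were assigned by marker genes alone. T1 is the lowest library in every range of B-like barcodes, from 1142 to 1734 CPM.

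Few genes of the other chaperone lists passed 2-fold, and calls were also few over all measured genes. A first list held HSP family members, co-chaperones and heat shock factors outside the 10, mostly but not only of the cytosol. Of 36 measured, 0 were called in T1 against C among B-like barcodes (median log2 ratio -0.04). In T3 against C 1 was higher (Hsf2, a heat shock factor, at 11.6 and 4.66 CPM), and 3 were higher in T3 than in T1. Those 3 were Hspa4l, an HSP110 relative, at 29.9 CPM in T3 and 9.16 CPM in T1, Ahsa2, a relative of the HSP90 co-chaperone Ahsa1, at 47.1 and 22.5 CPM, and Hsf2 at 11.6 and 4.86 CPM. Over all measured genes of B-like barcodes, 1.09% were lower and 0.250% higher in T1 than in C. Higher in T3 were 2.90% against C and 2.81% against T1. None of the 37 genes of that list measured in T-like barcodes was called in any comparison. Over all measured genes there, 2.02% to 3.30% were higher and 2.05% to 6.99% lower. None of the 7 matched subunits of the cytosolic chaperonin and none of 6 mitochondrial chaperones and proteases was called in either class. The endoplasmic reticulum list had 11 measured genes, among them the transcription factor Xbp1. Sdf2l1 was called lower in T3 than in C in T-like barcodes (14.7 and 35.6 CPM), where 6.99% of all measured genes were lower. No other call was made.

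Immediate early genes and members were both lower in T1 than in C, but not alike in T3. Of 19 measured in B-like barcodes, 6 were called lower in T1 than in C, where 1.09% of all measured genes were. They were Jun (573 and 2099 CPM), Klf2 (903 and 3300), Egr1 (101 and 271), Klf6 (325 and 836), Fosb (198 and 500) and Fos (439 and 1108). The median of the list was -0.79. In T3 against C 5 of 19 were lower, where 2.90% of all measured genes were, with a median of -0.46 against 0.09 for the members. Jun had 756 CPM in T3 and Fos 387 CPM, although Hspa1a, Hspa1b and Hsph1 were not lower there. In T-like barcodes 5 of 20 were lower in T1 than in C (median -0.58), where 2.05% of all measured genes were. In T3 against C 8 of 20 were lower and 1, Socs3, higher (median -0.78, against 0.04 for the members), where 6.99% of all measured genes were lower and 3.30% higher. T3 against T1 gave a list median of -0.21 in T-like barcodes, with 15 of 20 below 0 and 1 called lower (5.58% of all measured genes). The members had 0.39 there with 0 of 10 below 0. In B-like barcodes T3 against T1 gave 0.20 with 1 called higher (2.81% of all measured genes), against 0.90 for the members. Across barcodes drawn to 1000 UMIs, the Spearman coefficient between the HSP70 pair and the summed list was 0.40, 0.31 and 0.25 in B-like barcodes of C, T1 and T3 (2805, 2993 and 772 barcodes) and 0.50, 0.24 and 0.14 in T-like barcodes (2018, 2150 and 1688), given as a description. Summed over the list, the mean was 18.3, 9.79 and 10.0 UMIs per 1000 in B-like and 16.9, 11.5 and 8.65 in T-like barcodes. The part of tissue handling in the member levels was not tested.

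The genes whose pattern was most like a member's were found among 7475 genes by Pearson's r of log2(CPM + 10). It was taken over the 18 combinations of class and library with at least 50 barcodes, with T-like barcodes entering by subset. Hspa1a and Hspa1b were each other's closest gene (0.95), followed by Nedd9 (0.87) and Rab2b (0.84) for Hspa1a and by Mat2a (0.90) and Nedd9 (0.90) for Hspa1b. Hsph1 was closest to Celf1 (0.94), Swt1 (0.93) and Dlg1 (0.93), and Dnajb1 to Ddx39b (0.91), Smim19 (0.89) and Cops8 (0.89). Ewsr1 and Eftud2 (0.94 each) were among the genes closest to Dnaja1. Hsp90aa1 was closest to Mat2a (0.97), Mkln1 (0.97) and Tra2a (0.96), and Hspa8 to Pdcd10, Pcbp2 and Smad2 (0.96 each). Hspd1 was closest to Fubp1 (0.96), mt-Co1 (0.95) and Fbxl12 (0.95), with Hspe1 at 0.95, and Hspe1 to Rps25, Xrn2 and Rps12 (0.97, 0.97 and 0.96). Hspb1 was closest to Dnase2a (0.77), Oasl1 (0.76) and Trp53inp2 (0.76), and its r with Hspa8 was 0.07. These values are descriptions over combinations that share libraries. Included were plasma-like barcodes of C and T1, the class with the lowest CPM for every member but Hspb1, and r without them was not computed.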

How the data were processed

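CD45-sorted colon leukocytes were profiled with 10x Genomics 3′ reagents, version 3.1, per the labels' protocols. The values are the deposited raw UMI counts of each gene in each barcode. Build GRCm38, Seurat 3.1.4, Cell Ranger 3.1.0 and CASAVA 1.8 appear, with no role, in the submitters' processing notes. No source used here states the aligner settings or annotation. The smallest barcode had 500 UMIs. Total UMIs were 35489195, 37208603 and 15898397 in C, T1 and T3.

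The 10 members, the chaperone, immediate early and marker lists and the rules were chosen with earlier results of these data known. The named genes are the members, list genes past the 2-fold rule (up to 8 per list and comparison, by size) and the 3 genes most like each member, of which 1 is not reported here. Genes were matched by identifier, because 711 symbols in the files differ from the reference. Doublets called by Scrublet (69, 3 and 1) were removed. Counts were scaled to 10000 per barcode, and 2000 variable genes, 30 principal components, 15 neighbours and the Leiden method at resolution 3 (scanpy 1.11.5, leidenalg 0.10.2, Python 3.11.15) gave 37 clusters. The naming thresholds were chosen with the clusters in view, and 6 clusters stayed unnamed. A class needed the highest mean marker score, at least 7 and leading by 1 on the log2 CPM scale.

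No test was possible with 1 library per group, and no p-value was computed. Intervals are exact (Poisson for CPM, conditional binomial for ratios, Clopper-Pearson for shares) and cover counting error only. Those of CPM and of ratios take UMIs as independent. They are too narrow for the sampling of barcodes where UMIs of a gene cluster within barcodes. The calculations were checked on simulated counts drawn independently for each gene. That check leaves out the clustering of UMIs within barcodes, so it cannot show that the intervals are wide enough. TMM factors came from edgeR 4.0.16. Whether reads in introns were counted is not stated. Protein sequences were not used here.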

Additional observations from a re-analysis of the deposited data

Results flagged for a closer look

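The summed CPM of Hspa1a went opposite ways in different classes. T1 against C gave log2 ratios of -1.37 in B-like and -1.12 in T-like barcodes, both past 2-fold lower, and 0.34 (0.25 to 0.43) in innate lymphoid-like barcodes. T3 against C gave -1.01 in T-like barcodes and 0.06 (0.03 to 0.10) in B-like barcodes. With each innate lymphoid-like barcode drawn to 1000 UMIs, Hspa1a averaged 1.56 UMIs in T1 and 1.63 in C, which is not above C. At 2000 UMIs it averaged 3.66 in T1 and 3.28 in C, so the direction depended on the depth used. Each pair was picked out because the intervals lay on opposite sides of no difference, and these intervals leave out the spread between barcodes. The differences between classes were not tested, since each value rests on 1 library per group, and the T3 against C ratio of Hspa1a in B-like barcodes was -0.22 when barcodes were assigned by marker genes alone.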

How the results depend on the processing

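The 12 counts of members called higher or lower (2 classes, 3 comparisons, both directions) were recomputed under 11 alternatives, and 116 of 132 values stayed within 1.5 times. The 5 lower in T1 than in C among B-like barcodes became 0 when ratios were weighted to 1 cluster mix, an alternative added after the data had been seen, and was 5 or 6 otherwise. The 4 among T-like barcodes became 2 under the marker gate, with or without the mitochondrial filter. The 2 lower in T3 than in C among T-like barcodes became 0 under either marker gate, with barcodes thinned to 1000 UMIs and under the weighting. They became 1 with the members left in the clustering, without mitochondrial and ribosomal protein genes in the totals and under TMM. The weighting of T3 against C left out T-like clusters 14, 16, 19, 22 and 32, which had under 20 barcodes in C or T3. The 0 lower in T3 than in C among B-like barcodes became 1 under either marker gate, and the 0 higher became 1 at 1.5-fold and under the weighting. At 1.5-fold, T3 against T1 gave 7 higher in place of 4 in B-like and 2 in place of 1 in T-like barcodes. The share of all measured genes called at 1.5-fold was not computed, so counts at that size have no background beside them. Hspb1 turned round in T3 against T1 among B-like barcodes under the marker gate (-0.016). It also did so in T3 against C among T-like barcodes under the weighting (0.57), which left out cluster 19, its highest cluster in C. Across 60 log2 ratios and all alternatives there were 11 sign changes, the other 9 all in T3 against C among B-like barcodes: Hspa1a ran there from -0.22 to 0.62, Hspa1b from -0.06 to 0.85 and Hspb1 from -1.33 to 0.25. The cause was not tested. TMM moved log2 ratios by -0.16 to 0.11. The T1 against C ratio of Hspa1a ran from -1.62 to -0.60 in B-like and from -1.14 to -1.01 in T-like barcodes. Shares rose with depth: 60 of 60 moved when barcodes were not thinned and 56 of 60 at 2000 UMIs. A T subset gate of 2 UMIs moved 19 of 90 CPM values past their intervals, the marker gate 84 of 140. Low counts limit Hspb1 and all innate lymphoid-like and plasma-like values of T3. No paired analysis was possible because each group has 1 library.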
